A study of Mus musculus with 42 samples.

Results

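The mitochondrial ribosomal protein genes followed here are the protein coding genes of the mouse GENCODE annotation whose symbol begins with Mrpl or Mrps and a digit. There were 76 such members among the 14296 genes measured, 47 with Mrpl and 29 with Mrps symbols. Of the 78 genes that the annotation lists under these names, Mrpl33 and Mrpl53 were not analysed here. All 76 members had values in all libraries, and the lowest read count of any member in any library was 134. RNA sequencing of polyA RNA was performed on W9.5 embryonic stem cells of the 129X1/SvJ strain, a single mouse line. The cells differentiated without a directing signal after withdrawal of leukaemia inhibitory factor, which keeps such cells undifferentiated, and formed embryoid bodies, floating aggregates that give rise to early germ layer cells. A culture of replicate A and a culture of replicate B were harvested every 6 h from 0 h to 120 h, which gave 42 libraries at 21 time points with 2 libraries each. The cells at 0 h, harvested at the start of differentiation, are the reference for later times. All groups share the line. Later groups had been kept under differentiation conditions and the 0 h cells had not. Differences from 0 h therefore combine the change of culture with time.

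Mitochondria carry their own ribosome, which translates the few membrane proteins encoded in mitochondrial DNA, all of them subunits of the oxidative phosphorylation complexes. Its RNAs are made inside the organelle, but every one of its proteins is encoded in the nucleus, translated in the cytosol and imported. The Mrpl proteins build the large subunit, which forms peptide bonds, and the Mrps proteins build the small subunit, which reads the messenger RNA. Some have a counterpart in the bacterial ribosome and others were added during the evolution of mitochondria. Embryonic stem cells have few and immature mitochondria, and mitochondrial content and respiration change as the cells differentiate.

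The regions around the members' starts differed in layout from those of other genes. In the annotation, 33 of 76 members (43.4%) had the start of another protein coding gene on the opposite strand within 1000 bp, against 2050 of 13176 protein coding genes measured (15.6%). Distances were taken in either direction from the start, so some partners start inside the member. The pair Mrps11 and Mrpl46, a small and a large subunit gene, had their starts 412 bp apart on chromosome 7, each inside the other gene. Several of the other partners also encode mitochondrial proteins, among them Sars2 beside Mrps12 (172 bp), the mitochondrial seryl-tRNA synthetase, Ndufs6 beside Mrpl36 (29 bp), a subunit of complex I, and Twnk beside Mrpl43 (779 bp), the helicase of mitochondrial DNA. In RefSeq promoter windows of 300 bases (250 before to 50 after the start, GRCm38.p6), which were available for 67 members and 10362 protein coding genes measured, both strands were searched for short binding motifs. The ETS core CCGGAAG, the sequence bound by the GA-binding protein among others, was found in 24 of 67 members (35.8%) and in 19.4% of all these promoters. The NRF1 core GCATGCGC was found in 7 members (10.4%) and in 6.01% of all, and the YY1 core ATGGCGGC in 11 members (16.4%) and in 5.49% of all. The order was the opposite for the E-box CACGTG, bound by Myc among others, with 7.46% of members and 11.8% of all, and for the GC box GGGCGG, with 50.7% and 70.5%. None of these 5 strings contains another, and the shares describe these windows without a test. Only exact matches were counted, so sites that differ from a string by a base are left out.

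The upstream regions of Mrpl17 and Mrpl22 are shown because each holds both an NRF1 and an ETS core before its start and has no other protein coding gene starting on the opposite strand within 1000 bp. Mrpl17 was also among the members that rose early. Mrpl22 was not, with log2 differences from 0 h of 0.21 at 6 h and 0.34 at 24 h. Neither passed at adjusted p under 0.05 in limma. The 250 bases before the RefSeq start are given for Mrpl17 (chr7:105811088-105811337, minus strand, GRCm38.p6) and Mrpl22 (chr11:58171414-58171663, plus strand), 5′ to 3′, with the ETS core CCGGAAG and the NRF1 core, here as its reverse complement GCGCATGC, in capitals.
Mrpl17: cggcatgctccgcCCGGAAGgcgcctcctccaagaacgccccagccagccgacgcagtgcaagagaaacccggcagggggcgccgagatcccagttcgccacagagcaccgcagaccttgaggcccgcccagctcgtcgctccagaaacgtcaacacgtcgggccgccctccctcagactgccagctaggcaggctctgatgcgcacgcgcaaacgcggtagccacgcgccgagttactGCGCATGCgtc
Mrpl22: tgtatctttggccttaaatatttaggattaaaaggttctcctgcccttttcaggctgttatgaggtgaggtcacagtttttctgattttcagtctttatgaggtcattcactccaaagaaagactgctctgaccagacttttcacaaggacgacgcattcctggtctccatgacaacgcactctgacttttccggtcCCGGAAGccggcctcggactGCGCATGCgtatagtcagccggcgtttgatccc
The NRF1 core began 11 bases before the start in Mrpl17 and 33 bases before it in Mrpl22, and the ETS core began 237 and 53 bases before it. Variants of these strings were not searched for, so unmarked stretches may hold further sites.

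Expression was taken as the deposited log2 CPM, the logarithm of the reads of a gene relative to all counted reads after scaling of the libraries (CPM). The libraries held between 10120972 and 51652434 counted reads, with a median of 29692083, so that the level of 3 reads was at most 0.316 CPM. Every member had at least 134 reads in each library, and the counting error was not estimated. The labelled cells carried their markers at 0 h, where Pou5f1, a pluripotency factor, read 9.88 in A and 10.08 in B, and T, a primitive streak gene, read -1.17 and -2.13. By 120 h Pou5f1 read 8.65 and 8.59, and T read 5.12 and 4.81. The 6 stem cell markers summed to 3404 and 3669 CPM at 0 h, 1366 and 1420 CPM at 72 h and 1582 and 1532 CPM at 120 h. The 4 primitive streak and mesoderm markers measured summed to 14.8 and 14.1 CPM at 0 h and 70.7 and 60.1 CPM at 120 h. Among them, Eomes already read 3.78 and 3.71 at 0 h. The 5 fibroblast or feeder cell markers summed to 24.3 and 28.1 CPM at 0 h, 7.55 and 7.80 CPM at 24 h and 99.5 and 88.8 CPM at 120 h, and their part in the members' changes was not tested. The fibroblast or feeder cell sums rest on different genes at these times. Thy1 read 4.27 and 4.47 at 0 h and 1.79 and 1.85 at 120 h. Col1a1 read 2.26 and 2.53 at 0 h and 5.94 and 5.86 at 120 h. In such mixed cultures, fewer cells of a type and less RNA per cell cannot be told apart. The duplicates of 42 h stood apart, with the members a median of 0.40 higher in B than in A on the log2 scale and 73 of 76 members higher in B. The same was seen at 96 h (0.39), 66 h (0.27) and 72 h (0.25), while at the other time points this median lay between -0.02 and 0.16. At 42 h the median of B minus A was 0.57 for the 93 cytosolic ribosomal protein genes. It was 0.49 for protein coding genes with under 1000 exon bases and -0.33 for those with over 8000. Whether the members' difference followed length was not tested. At 96 h the median of B minus A was -0.20 for the cytosolic ribosomal protein genes, 0.11 for the short and -0.19 for the long genes. The plot of the difference between the duplicates shows these values at each time point.

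**Figure D1:**
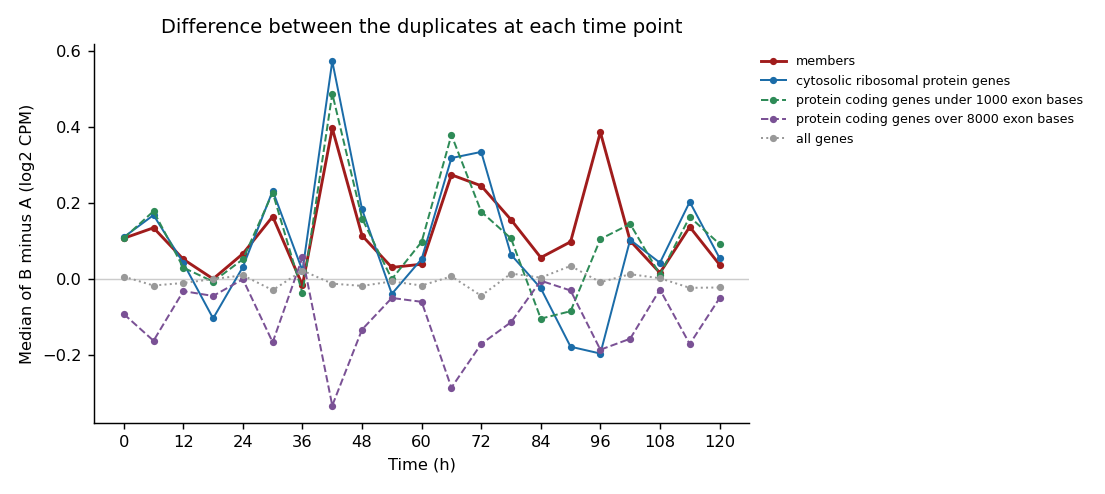
Median difference between replicate B and replicate A (log2 CPM) at each time point for the 76 members, the 93 cytosolic ribosomal protein genes, short and long protein coding genes, and all genes. The members lie highest at 42 h (0.40), where protein coding genes with under 1000 exon bases are also high, and at 96 h (0.39), where the cytosolic ribosomal protein genes are at -0.20.

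The members together were highest between 12 h and 42 h, lower from 72 h on, and at 120 h below the undifferentiated cells. At 0 h they took 0.391% of the counted reads in A and 0.411% in B. The share was 0.345% and 0.381% at 6 h, 0.482% and 0.492% at 18 h, 0.420% and 0.433% at 24 h, 0.378% and 0.412% at 48 h and 0.336% and 0.370% at 72 h. At 120 h it was 0.307% and 0.316%. The shares of the 2 replicates at 18 h and at 120 h did not overlap with those at 0 h, while at 42 h they were 0.415% and 0.519%, and this highest value came from the library of replicate B that stood apart. On the log2 CPM scale, the median change of the members from 0 h of the same replicate was 0.47 in A and 0.37 in B at 18 h, 0.28 and 0.25 at 24 h, 0.20 and 0.23 at 48 h, -0.15 and -0.05 at 72 h and -0.29 and -0.33 at 120 h. The median of all genes stayed between -0.07 and 0.02 throughout. At 6 h the share of reads fell below that of 0 h in both replicates while the median change was 0.11 and 0.20, since the share is taken without scaling factors and these were 1.08 at 0 h and 0.93 at 6 h in A. Without scaling factors, the median difference of the members at 6 h was -0.06 and that of all genes was -0.27, so the direction at 6 h held only relative to the other genes. Relative to the median of all genes, the members' median was 0.20 higher at 6 h and 0.31 higher at 24 h, a distance that no scaling of whole libraries alters.

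**Figure D2:**
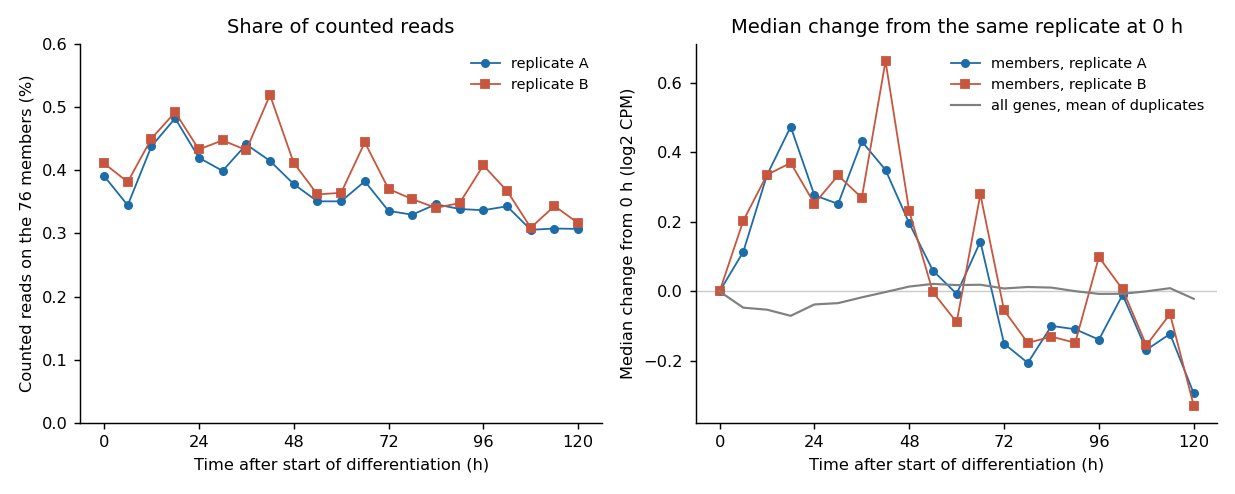
Left, share of counted reads (%) on the 76 members in each library against time (h); right, median change of the members from 0 h of the same replicate (log2 CPM), with all genes as the grey line. Both replicates rise to 18 h, 0.482% and 0.492% of reads, and end lowest or near their lowest at 120 h, and replicate B has a separate high value at 42 h.

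By the mean of the duplicates, 64 of 76 members had their highest level between 12 h and 42 h and 62 had their lowest between 72 h and 120 h. The same was not counted for all genes, so these numbers describe the members without a comparison. The count of members highest at 42 h alone was 41, but it rested on a single library. In replicate A, 18 h held the highest value of 29 members, 36 h that of 15, 12 h that of 11 and 42 h that of 3, and in replicate B, 56 were highest at 42 h. With the 42 h library of replicate B left out, 53 members were highest between 12 h and 42 h, 39 of them at 12 h or 18 h. A difference between any of the time points was found for 52 of 76 members at adjusted p under 0.0001 (moderated F test), where 74.6% of all genes passed. The median range over the time points was 1.04 on the log2 scale for the members and 1.5 for all genes. The 5 widest ranges were those of Mrpl20 (1.76), Mrpl18 (1.74), Mrpl52 (1.70), Mrps18b (1.63) and Mrpl34 (1.52). Those of Mrpl20, Mrpl18 and Mrpl34 reach up to the mean of 42 h, which includes the library of replicate B that stood apart. Ranges are not given without it. The narrowest were those of Mrpl10 (0.43), Mrps36 (0.54), Mrps10 (0.57), Mrpl58 (0.61) and Mrps18a (0.62). Mrpl58 encodes a peptide hydrolase built into the large subunit, and the product of Mrps36 has been assigned to a dehydrogenase complex of the citric acid cycle in place of the ribosome. Between duplicates the median SD was 0.153 for the members and 0.179 for all genes. It was largest for Mrps14 (0.30), Mrps18c (0.27), Mrpl34 (0.25) and Mrpl52 (0.25), so the wide ranges of the last 2 were measured less firmly.

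**Figure D3:**
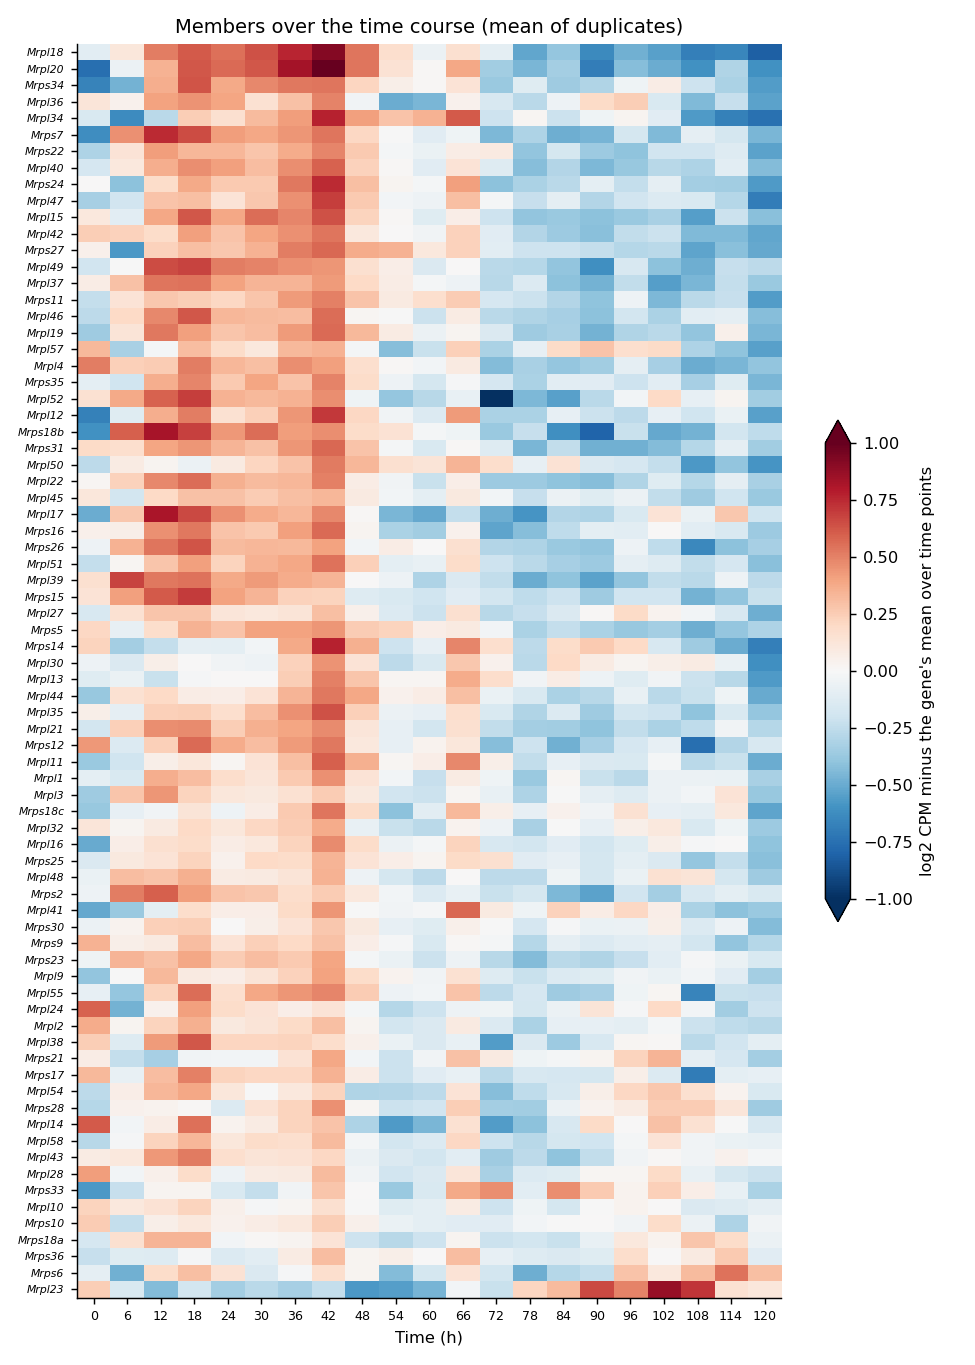
Mean of the duplicates at each time point for each member, as log2 CPM minus the member's own mean over the 21 time points (red higher, blue lower, colours saturated at -1 and 1), ordered by the difference between 24 h and 120 h. Most members are high between 12 h and 42 h and low from 72 h on, Mrpl18 and Mrpl20 lead the list, and Mrpl23 at its foot runs the other way.

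The comparison of 6 h with 0 h asks what happened to the members in the first step of differentiation. Single members moved in both directions, and 5 of 76 passed at adjusted p under 0.0001, against 26.3% of all genes. Mrps7, whose product lies in the head of the small subunit, read 5.04 and 5.17 at 0 h and 6.10 and 6.26 at 6 h and rose by 1.07 ± 0.15 (SE, n = 2 per time point, adjusted p = 8.7e-07). Mrps18b, a small subunit gene of the S18 family, read 5.58 and 5.63 at 0 h and 6.73 and 6.90 at 6 h and rose by 1.21 ± 0.20 (adjusted p = 9.1e-06). In both genes the libraries of 6 h lay above those of 0 h with no overlap. Mrpl17, a large subunit gene, read 5.02 and 5.16 at 0 h and 5.75 and 5.96 at 6 h (difference 0.77 ± 0.14, adjusted p = 3.1e-05). Mrpl24 ran the other way, from 6.93 and 7.0 to 5.86 and 5.95, and fell by 1.06 ± 0.13 (adjusted p = 6.8e-08). Mrps27, whose product is an RNA-binding protein of the pentatricopeptide repeat family, read 6.32 and 6.29 at 0 h and 5.61 and 5.75 at 6 h (difference -0.62 ± 0.12, adjusted p = 5.0e-05). At adjusted p under 0.05, 18 members were higher and 13 lower, where 27.0% and 31.1% of all genes were. Without scaling factors, 9 were higher and 27 lower at that threshold. The shares of all genes are those with scaling, and the median of all genes also fell without it. These 2 counts are therefore not set against those shares.

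Between 6 h and 24 h, 1 of 76 members passed at adjusted p under 0.0001, where 11.4% of all genes did, and this was Mrps27, which read 6.48 and 6.56 at 24 h and rose by 0.84 ± 0.12 (adjusted p = 1.6e-06). At adjusted p under 0.05, 16 members were higher (19.1% of all genes) and 0 were lower in limma (19.3% of all genes), also 0 at an unadjusted p under 0.05, with 20 members below 6 h in value. Mrpl24 read 6.54 and 6.58 at 24 h, above 6 h and below 0 h in both replicates, and its difference from 6 h was 0.66 ± 0.13 (adjusted p = 0.00015), which did not pass at 0.0001. Of the members that rose by 6 h, Mrps7 read 6.12 and 6.17 and Mrps18b read 6.61 and 6.69 at 24 h.

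After 24 h the members were mostly higher than in the undifferentiated cells. Of 76 members, 60 lay above 0 h, 56 of them in both replicates, and the median difference was 0.27, with -0.59 and 1.32 at its ends. At adjusted p under 0.0001, 7 members passed, all of them higher, where 22.7% of all genes passed. These were Mrpl20, Mrps34, Mrps18b, Mrps7, Mrpl17, Mrpl12 and Mrpl19. Mrpl20, which organises the ribosomal RNA in the assembly of bacterial large subunits, rose most, from 4.97 and 5.15 at 0 h to 6.34 and 6.42 at 24 h, by 1.32 ± 0.20 (adjusted p = 3.5e-06). Mrps34, which has no bacterial counterpart, read 4.38 and 4.48 at 0 h and 5.41 and 5.54 at 24 h (difference 1.05 ± 0.19, adjusted p = 4.1e-05), and unlike Mrps7 it was still at 4.49 and 4.76 at 6 h. Mrpl12, a protein of the stalk to which translation factors bind, read 5.78 and 5.81 at 0 h and 6.59 and 6.66 at 24 h (difference 0.83 ± 0.14, adjusted p = 1.1e-05). Mrpl17 rose by 0.95 ± 0.14 (adjusted p = 1.9e-06) and Mrpl19 by 0.63 ± 0.11 (adjusted p = 2.2e-05). At adjusted p under 0.05, 28 members were higher and 4 lower, where 26.0% and 29.6% of all genes were, and the 4 were Mrpl14, Mrpl23, Mrpl28 and Mrpl24. Leaving out replicate A of 0 h left 16 higher and 4 lower at 0.05 and 0 members at 0.0001. Without scaling factors, 14 were higher and 8 lower at 0.05, for which the shares of all genes are not given. Protein coding genes with under 1000 exon bases had a median difference of -0.16 and those with over 8000 had 0.11, and the median of the members, 0.27, lay above both.

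Of the later daily steps, 48 h to 72 h and 96 h to 120 h had lower medians, -0.29 and -0.26. In replicate A the share of reads fell more in the first step, from 0.378% to 0.336%, than in the second, from 0.337% to 0.307%. In replicate B it fell more in the second, from 0.408% to 0.316%, than in the first, from 0.412% to 0.370%. From 24 h to 48 h, 0 of 76 members passed at adjusted p under 0.0001 in limma (8.97% of all genes) and 0 with voom weights, with 7 at an unadjusted p under 0.05. At an adjusted p under 0.05 there were 0 higher (17.2%) and 2 lower (12.8%), namely Mrpl17 and Mrpl36. From 48 h to 72 h, 70 of 76 members were lower, 58 of them in both replicates, and the median difference was -0.29 against 0.01 for all genes. At adjusted p under 0.0001, 0 of 76 members passed in limma (9.38% of all genes) and 0 with voom weights, with 41 at an unadjusted p under 0.05. At an adjusted p under 0.05 there were 33 lower (19.4% of all genes) and 1 higher (21.5%), which was Mrps33. Mrps24 had the smallest adjusted p, 0.00038. Mrpl20 read 6.23 and 6.46 at 48 h and 5.39 and 5.54 at 72 h (difference -0.88 ± 0.20, adjusted p = 0.00096), and Mrps7 read 5.92 and 5.94 at 48 h and 5.25 and 5.30 at 72 h (difference -0.66 ± 0.15, adjusted p = 0.00099). The duplicates of 72 h differed by 0.25 in the median, and the number lower at 0.05 was 11 without replicate B of 48 h and 14 without replicate A of 72 h.

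From 72 h to 96 h the median difference was 0.09, with 28 members higher in both replicates and 16 lower in both. The median level of the members went from 5.17 to 5.07 in A and from 5.35 to 5.48 in B, in opposite directions. Over the same hours the median difference was 0.30 for protein coding genes with under 1000 exon bases and -0.18 for those with over 8000. In limma 0 of 76 passed at adjusted p under 0.0001 (3.39% of all genes), as with voom weights, and 25 had an unadjusted p under 0.05. At an adjusted p under 0.05, 9 were higher (15.1% of all genes) and 5 lower (13.8%). From 96 h to 120 h, 68 of 76 members were lower, 44 of them in both replicates, with a median difference of -0.26. Here too 0 of 76 passed at adjusted p under 0.0001 (1.94% of all genes) in limma and with voom weights, and 28 had an unadjusted p under 0.05. At an adjusted p under 0.05, 13 were lower (8.28% of all genes) and 0 higher (9.49%), with Mrpl57 (difference -0.72 ± 0.14, adjusted p = 0.00065) and Mrpl36 (-0.78 ± 0.16, adjusted p = 0.00099) first. Genes with under 1000 exon bases had a larger median difference over these hours, -0.43, and the members of 96 h were read from duplicates that stood 0.39 apart.

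By the mean of the duplicates, 9 members had their lowest level at 108 h, among them Mrps17. Mrps17, a small subunit gene with a bacterial counterpart, read 4.94 and 4.96 at 96 h, 4.19 in both replicates at 108 h and 4.76 and 4.85 at 120 h. Of 76 members it was the 1 whose difference between 96 h and 108 h passed at adjusted p under 0.0001 (difference -0.76 ± 0.14, adjusted p = 8.6e-05), where 6.99% of all genes passed. The other libraries on either side, 102 h (4.57 and 4.94) and 114 h (4.72 and 4.88), did not overlap with 108 h. The call was lost without any 1 of the 4 libraries compared, while the difference itself stayed between -0.75 and -0.77. At 0.05, 8 members were lower than at 96 h (16.5% of all genes) and 0 were higher (17.9%).

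The whole course is spanned by 2 comparisons. At 120 h, 61 of 76 members lay below 0 h, 56 of them in both replicates, with a median difference of -0.32. At 0.0001, 3 members passed, where 23.0% of all genes did, and all 3 fell. Mrpl4 read 6.21 and 6.27 at 0 h and 5.24 and 5.42 at 120 h (difference -0.91 ± 0.16, adjusted p = 2.6e-05). Mrpl57 read 4.69 and 4.74 at 0 h and 3.69 and 4.0 at 120 h (difference -0.87 ± 0.14, adjusted p = 7.7e-06). Mrpl24 read 6.93 and 7.0 at 0 h and 6.13 and 6.21 at 120 h (difference -0.80 ± 0.13, adjusted p = 6.4e-06), after a difference of -1.06 at 6 h. At 0.05, 31 members were lower (25.6% of all genes) and 0 were higher (26.6%). Without 1 of the 4 libraries compared, the number past 0.0001 was 0 or 1. Genes with under 1000 exon bases had a median difference of -0.34, near that of the members, and those with over 8000 had 0.20.

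The comparison of 120 h with 24 h, which was added after the values had been seen, held the largest number of members called. Of 76 members, 73 were lower at 120 h, 71 of them in both replicates, and the median difference was -0.58, or 0.671 of the level at 24 h. At 0.0001, 18 members passed, all lower, where 28.7% of all genes passed in either direction, and at 0.05 there were 57 lower (27.9% of all genes) and 1 higher (31.5%). Mrpl18, a large subunit gene whose bacterial counterpart binds 5S ribosomal RNA, fell most, from 7.37 and 7.36 to 5.99 and 6.01, by 1.37 ± 0.18 (adjusted p = 3.1e-07). Mrpl20 read 6.34 and 6.42 at 24 h and 5.12 and 5.28 at 120 h (difference -1.18 ± 0.20, adjusted p = 1.3e-05). Mrpl36 read 4.46 and 4.36 at 24 h and 3.45 and 3.51 at 120 h (difference -0.93 ± 0.16, adjusted p = 1.5e-05). Mrps7 differed by -0.88 ± 0.15 (adjusted p = 1.4e-05) and read 5.25 and 5.28 at 120 h, close to its 5.04 and 5.17 at 0 h. Mrps22, which has no bacterial counterpart, read 5.65 and 5.61 at 24 h and 4.87 and 4.67 at 120 h (difference -0.86 ± 0.13, adjusted p = 2.4e-06). The other 13 members called differed by between -0.59 (Mrps5) and -0.84 (Mrpl40). With 1 of the 4 libraries left out, between 44 and 55 members were lower at 0.05 and between 2 and 4 passed at 0.0001. The median difference was -0.24 for genes with under 1000 exon bases.

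**Figure D4:**
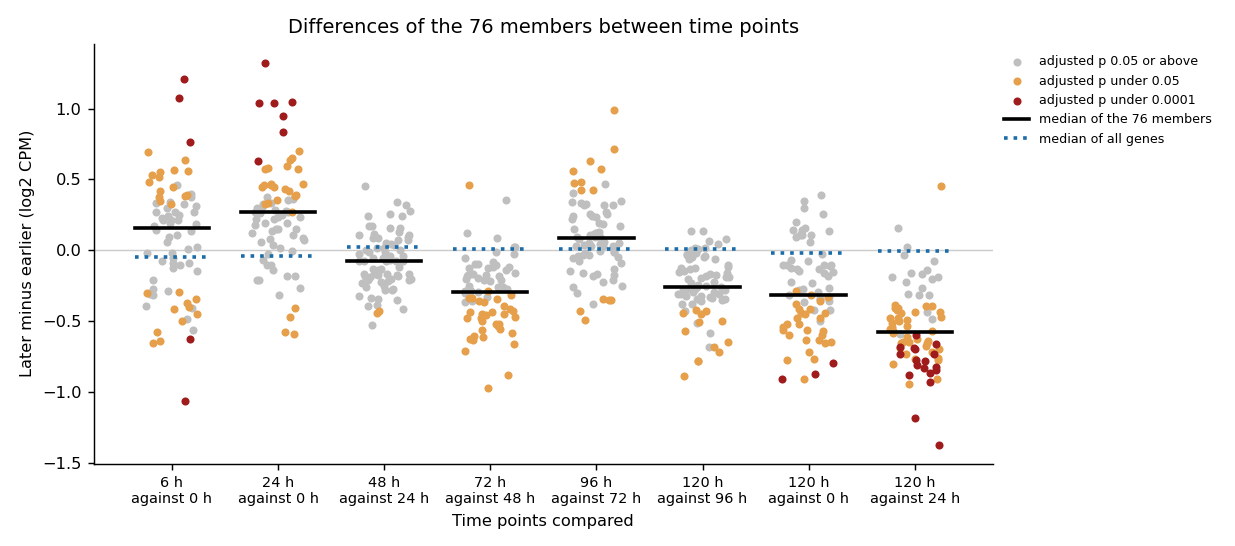
Difference of each of the 76 members (log2 CPM, later minus earlier time point) in 8 comparisons, coloured by adjusted p, with the median of the members (black) and of all genes (blue, dotted). The members lie above the median of all genes at 24 h against 0 h (0.27 against -0.04) and below it at 72 h against 48 h and at 120 h against 24 h (-0.58 against 0.00).

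By subunit, the counts at adjusted p under 0.05 are read against those of all genes, of which 26.0% were higher and 29.6% lower at 24 h against 0 h and 31.5% were higher and 27.9% lower at 120 h against 24 h. Of the 49 large subunit genes, 21 were higher and 4 lower at 24 h against 0 h, with a median difference of 0.28, and 39 were lower and 1 higher at 120 h against 24 h, with a median of -0.57. Of the 26 small subunit genes, 7 were higher, a share near that of all genes, and 0 lower at 24 h, with a median of 0.25, and 18 were lower and 0 higher at 120 h against 24 h, with a median of -0.59. Mrps30 and Mrps18a are counted with the large subunit, where their products lie, and Mrps36 with neither. The 16 small subunit genes with a bacterial counterpart had a median difference of -0.29 at 6 h, with 2 higher and 5 lower, and the 10 particular to mitochondria had one of 0.29, with 3 higher and 1 lower, where 27.0% of all genes were higher and 31.1% lower. The difference between the classes was not tested. Among the 5 further subunits whose symbols follow another scheme, Ptcd3 read 7.10 and 7.01 at 0 h, 7.88 and 7.82 at 24 h and 6.71 and 6.82 at 120 h, and each of the 5 passed at 0.05 with a lower level at 120 h than at 24 h.

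**Figure D5:**
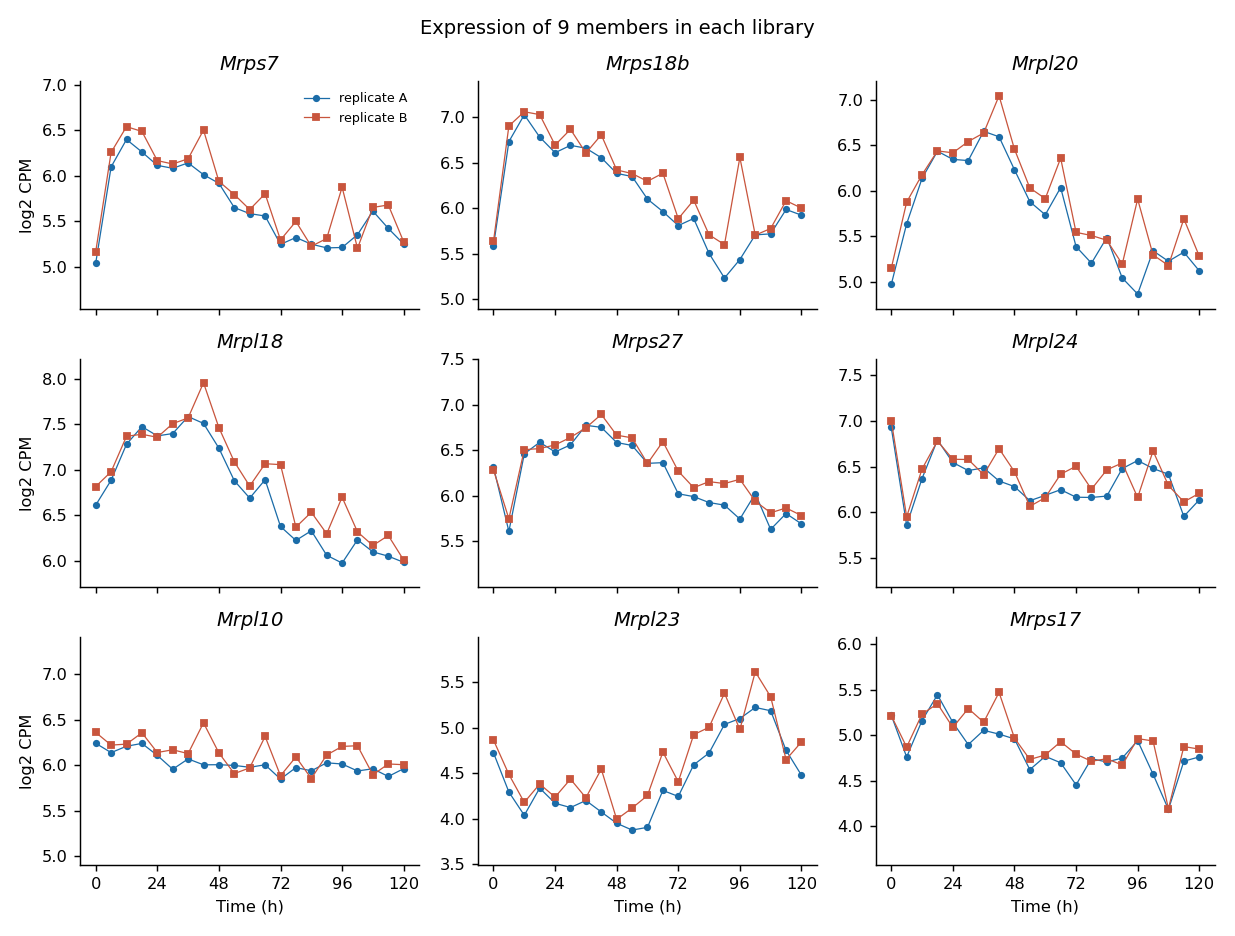
Expression (log2 CPM) of 9 members in each library of replicate A (circles) and replicate B (squares) against time (h), each panel spanning 2.5 log2 units. Mrps7 and Mrps18b rise by 6 h, Mrpl20 and Mrpl18 reach their highest values later, Mrps27 and Mrpl24 are low at 6 h, Mrpl10 varies least, Mrpl23 is low at 48 h and high at 102 h, and Mrps17 is low at 108 h.

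A single member was higher at 120 h than at 24 h at adjusted p under 0.05, and it ran against the others over much of the course. Mrpl23 read 4.72 and 4.87 at 0 h, 4.17 and 4.24 at 24 h, 3.95 and 3.99 at 48 h and 5.19 and 5.34 at 108 h, and then 4.48 and 4.84 at 120 h. Its difference was -0.59 ± 0.18 at 24 h against 0 h (adjusted p = 0.0062), 0.71 ± 0.18 at 96 h against 72 h (adjusted p = 0.0036) and 0.46 ± 0.18 at 120 h against 24 h (adjusted p = 0.028), none of which passed at 0.0001. Mrpl23 lies at chr7:142532686-142540747 (GRCm38, plus strand), and H19, an imprinted noncoding RNA, lies beyond its end at chr7:142575529-142578143, followed by Igf2, an imprinted growth factor. H19 read 2.36 and 2.17 at 0 h, 1.40 and 1.74 at 72 h and 6.99 and 6.86 at 120 h, and Igf2 read 9.14 and 9.24 at 120 h after 3.32 and 3.14 at 72 h. H19 read 7.35 and 6.79 and Igf2 read 9.55 and 9.41 at 114 h, when Mrpl23, at 4.75 and 4.65, lay below its level at 108 h. Mrps6 and Mrps36 also had values above 24 h at 120 h, by 0.16 and 0.02, and neither passed the test. Mrps6 spans Slc5a3 on the same strand, and Mrps24 overlaps Urgcp on the same strand, so the division of reads between the genes of these pairs is uncertain. In all, 25 members overlapped another gene measured, 23 of them on the opposite strand. The libraries were made with a strand-specific kit, but whether the counting used strand is not given in the sources used here, so reads of these genes and their partners may not be separated.

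Levels between members are compared per kilobase. Taking the median length of the protein coding transcripts in the basic annotation, the highest mean levels over all time points, in log2 CPM per kilobase, were those of Mrpl42 (7.41), Mrpl20 (6.83), Mrpl18 (6.53), Mrpl15 (6.36) and Mrps18b (6.30), and the lowest were those of Mrps35 (2.17), Mrps26 (2.84), Mrpl57 (2.87), Mrps25 (3.01) and Mrpl19 (3.21). By the union of all annotated exons Mrpl18 came first of 76 (6.33) and Mrps35 last (1.11), while Mrpl42 was 20th, so the order depended on which length was used. These are levels of messenger RNA only. Mrpl48-ps, the single pseudogene of the family among the genes measured, read 2.33 and 2.07 at 0 h and 1.79 and 1.64 at 120 h, and reads of Mrpl48 itself are uncertain, since the copies may share them.

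The genes that serve the mitochondrial ribosome were read from lists, with the members of each at adjusted p under 0.05. Of all genes, 26.0% were higher and 29.6% lower at 24 h against 0 h, and 31.5% were higher and 27.9% lower at 120 h against 24 h. Of 23 genes for ribosome assembly and RNA modification, 11 were higher and 1 lower at 24 h against 0 h, and 18 were lower and 0 higher at 120 h against 24 h. Ybey, a ribosomal RNA endonuclease, differed by 1.80 at 6 h against 0 h (adjusted p = 9.6e-10) and by -0.90 at 120 h against 24 h (adjusted p = 4.3e-05). Fastkd2, needed for the large subunit, differed by 0.95 at 24 h and by -1.05 at 120 h against 24 h. Of 13 translation factors, 2 were higher and 2 lower at 24 h, and 6 were lower and 0 higher at 120 h against 24 h, among them Tufm, the elongation factor that carries aminoacyl-tRNA, at 7.41 and 7.42 at 24 h and 6.61 and 6.55 at 120 h. The 17 mitochondrial aminoacyl-tRNA synthetases included 5 higher and 6 lower at 24 h, near the shares of all genes, with a median difference of -0.09, and 9 were lower and 0 higher at 120 h against 24 h. Of 14 genes for replication, transcription and RNA maturation of the mitochondrial genome, 7 were higher and 1 lower at 24 h, and 11 were lower and 1 higher at 120 h against 24 h. Tfam, which packages mitochondrial DNA, read 6.39 and 6.54 at 0 h, 6.87 and 6.82 at 24 h and 6.28 and 6.24 at 120 h.

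Of the 12 messenger RNAs made inside mitochondria, 0 were higher and 0 lower at 120 h against 24 h in limma at adjusted p under 0.05, also 0 at an unadjusted p under 0.05, with a median difference of -0.10, after 3 higher and 1 lower at 24 h against 0 h. Of the 81 nuclear genes for oxidative phosphorylation subunits, 1 was higher and 13 lower at 24 h, with a median difference of -0.12, against 26.0% and 29.6% of all genes. At 120 h against 24 h, 28 of the 81 were lower and 1 higher, against 27.9% and 31.5% of all genes, with a median of -0.30. Of the 93 cytosolic ribosomal protein genes, 6 were higher and 3 lower at 24 h, with a median of -0.07, and 3 were higher and 9 lower at 120 h against 24 h, with a median of 0.01. The difference between the members and these groups was not tested.

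Regulators known to bind promoters of nuclear genes for mitochondrial proteins were read from the same fit. Nrf1, a factor that binds the NRF1 core, read 5.88 and 5.84 at 0 h, 6.89 and 6.83 at 6 h, 6.56 and 6.60 at 24 h and 6.01 and 5.95 at 120 h, and rose by 1.0 ± 0.08 at 6 h (adjusted p = 2.4e-11). Yy1 read 6.40 and 6.46 at 0 h, 7.18 and 7.17 at 24 h and 6.80 and 6.86 at 120 h. Gabpa, the DNA-binding part of the GA-binding protein, read 7.36 and 7.26 at 0 h, 8.10 and 7.84 at 6 h and 6.84 and 6.82 at 120 h. Myc, a factor that drives growth genes, read 4.55 and 4.43 at 0 h, 7.57 and 7.71 at 6 h, 7.40 and 7.32 at 48 h and 4.42 and 4.54 at 120 h. Esrra ran the other way, at 3.78 and 4.01 at 0 h, 3.01 and 2.93 at 24 h and 3.63 and 3.76 at 120 h. Of the 9 regulators measured, 6 were higher and 2 lower at 24 h against 0 h (26.0% and 29.6% of all genes), and 2 were higher and 6 lower at 120 h against 24 h (31.5% and 27.9%). The 7 members with an NRF1 core in the promoter window had a median difference of 0.39 at 6 h, with 4 higher and 0 lower, against a median of 0.14 in the 60 members without it. Of all genes, 27.0% were higher and 31.1% lower at 6 h. For the 24 members with an ETS core the median at 6 h was 0.28, with 8 higher and 3 lower, and for the 43 without it -0.02. With and without the YY1 core the medians at 6 h were 0.22 and 0.14, and for the E-box 0.22 and 0.16. The GC box ran the other way, with 0.07 and 0.21. At 24 h against 0 h the medians with and without were 0.34 and 0.27 for the NRF1 core and 0.32 and 0.24 for the ETS core. They were 0.28 and 0.27 for the YY1 core, 0.33 and 0.26 for the E-box and 0.26 and 0.28 for the GC box. At 120 h against 24 h the medians were -0.64 and -0.56 for the NRF1 core and -0.63 and -0.55 for the ETS core. They were -0.61 and -0.54 for both the YY1 core and the GC box. The E-box had the widest gap, -0.77 and -0.56, so lower medians were not particular to the NRF1 and ETS cores. These groups share libraries and differ in size, and their differences were not tested.

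Members that share a start region with another gene did not always move with it. Mrps11 and Mrpl46 read 4.44 and 4.42, and 4.89 and 4.96, at 0 h, and at 120 h against 24 h both differed by -0.76. Mrps18b and Ppp1r10, whose starts are 45 bp apart, differed by 1.04 and 1.56 at 24 h against 0 h and by -0.69 and -0.72 at 120 h against 24 h. Mrps12, by contrast, differed by -0.06 at 24 h against 0 h while its partner Sars2 differed by 0.52. Mrps7 differed by 1.04 and its partner Gga3, 126 bp away, by -0.38 (adjusted p = 0.0069). Of the 32 partners with values, which include Mrps11 and Mrpl46 themselves, 12 were higher and 8 lower at 24 h at adjusted p under 0.05, where 26.0% and 29.6% of all genes were. At 120 h against 24 h, 4 were higher and 13 lower, where 31.5% and 27.9% of all genes were. The medians of the partners were 0.11 at 24 h against 0 h and -0.24 at 120 h against 24 h. The medians of the 33 members with such a partner were 0.33 and -0.59.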

How the data were processed

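RNA-seq of strand-specific polyA libraries was performed on biological duplicates at 21 time points. The authors used Trim Galore for trimming, TopHat2 for alignment (mm10), HTSeq for counts per GENCODE vM2 gene and edgeR for normalisation, and deposited log2 CPM values from voom. Their tool versions are not given in the sources used here. Whole reads were recovered from the deposited values and gave the depth (10120972 to 51652434 reads per library). Members were found by symbol in GENCODE.

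The log2 CPM values of all genes were fitted in limma 3.58.1 (R 4.3.3), with time point as a factor and eBayes with a trend, after tests on simulated data. Differences are log2 values ± SE with two-sided p adjusted by Benjamini-Hochberg over all genes within a comparison, called at 0.0001, with 0.05 as a second threshold. Singled out were up to 5 members with the largest called change in each direction, the extremes of level per kilobase and of range, the largest SD between duplicates, and members with a close neighbour. Mrpl23 beyond its neighbourhood was described after its values were seen. Alternatives were voom weights, no trend, other scalings, a filter, a replicate term and left-out libraries. Members and lists were chosen with earlier results of these data known.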

Additional observations from a re-analysis of the deposited data

How the results depend on the processing

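The members called at adjusted p under 0.0001 were counted again under each alternative, and none of the 35 differences called there and recomputed changed its direction. At 0.05, the counts in either direction were 31 (6 h against 0 h), 32 (24 h against 0 h), 16 (24 h against 6 h), 2 (48 h against 24 h), 34 (72 h against 48 h), 14 (96 h against 72 h), 8 (108 h against 96 h), 13 (120 h against 96 h), 31 (120 h against 0 h) and 58 (120 h against 24 h). The main fit had no replicate term. Over all genes and 210 pairs of time points, deviations of libraries of the same replicate had a mean correlation of 0.0795, from -0.474 to 0.598. Of these correlations, 68.6% were positive. For the members alone such a correlation was not taken, and their share of reads was higher in B than in A at most time points. The shares of all genes called are given for the main fit only. Counts under the alternatives therefore do not tell a change in the members from a change in all genes. With the replicate block, 3 members were called at 24 h against 6 h, 2 at 72 h against 48 h, 1 at 96 h against 72 h, 1 at 120 h against 96 h and 7 at 120 h against 0 h, and 27 at 120 h against 24 h. Without normalization factors, 3 were called at 24 h against 0 h, 2 at 24 h against 6 h, 2 at 108 h against 96 h and 7 at 120 h against 0 h. Among all genes called at adjusted p under 0.05 at 24 h against 0 h, the share that were higher went from 46.7% to 34.2%. With a common median, or with no trend, 0 were called at 108 h against 96 h. Without 1 of the libraries compared, the calls numbered 2 at 6 h against 0 h, 0 to 3 at 24 h against 0 h, 0 or 1 at 24 h against 6 h, 0 to 2 at 108 h against 96 h, 0 or 1 at 120 h against 96 h, 0 or 1 at 120 h against 0 h, 2 to 4 at 120 h against 24 h and 0 in the other comparisons of days, where a single library then stands for its time point and is assumed to vary like the others. Without 42 h replicate B, which was chosen after seeing the data, the counts were 7, 8 and 3 for 6 h against 0 h, 24 h against 0 h and 24 h against 6 h, 1 for 72 h against 48 h, 6 for 120 h against 0 h and 23 for 120 h against 24 h. The members' median difference at 6 h against 0 h turned from 0.16 to -0.06 without normalization factors. The log2 difference in the share of reads on the members between 24 h and 0 h was 0.0889, and 0.393 as the median log2 CPM of the members. Of 350 alternative values for these 35 differences, 131 no longer passed 0.0001. The cause of these changes was not tested. The lowest count of a member in a library was 134 reads, and the effect of depth was not tested.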
